A study of Homo sapiens with 12 samples.

Results

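Chemokines are small secreted proteins that guide migrating cells through G protein-coupled receptors on the cells they attract. The 10 chemokine genes described here are CXCL1, CXCL2, CXCL3, CXCL5, CXCL8, CXCL10, CXCL16, CCL2, CCL5 and CCL20. They were taken by symbol, whatever their counts, from a table of 60591 genes. All 10 are in that table, and 6 of them passed the low-count filter and were tested. RNA was sequenced from PC9 and H1650 cells, established lines of non-small cell lung cancer that the study describes as sharing one activating deletion in EGFR, the epidermal growth factor receptor. All 12 libraries carry the genotype label wild-type, so no engineered change distinguishes the groups. T0 cells were in 0.1% DMSO and were collected at 0 h, when the other wells were drugged. The other cells were collected after 36 h with an inhibitor of the EGFR kinase, either erlotinib at 10 μM or osimertinib at 0.1 μM. Each line thus gave 3 groups of 2 replicates. The study's question for these libraries was whether the expression response differed between lines of different sensitivity to EGFR inhibitors.

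In epithelial cells, most inducible chemokine genes are switched on by inflammatory signals that reach NF-kB, and interferon signals act on a further set that includes CXCL10. CXCL1, CXCL2, CXCL3, CXCL5 and CXCL8 carry the ELR motif, bind CXCR2 and recruit neutrophils. CXCL10 binds CXCR3 on activated T cells. CXCL16 is made as a membrane protein with a chemokine domain, can be released by the proteases ADAM10 and ADAM17, and binds CXCR6. CCL2 attracts monocytes through CCR2, CCL5 acts on receptors that include CCR1 and CCR3, and CCL20 acts on CCR6.

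The stretch in front of each gene that holds an NF-kB-like sequence is shown because the CXCR2 ligands and CCL20 are textbook NF-kB targets, and their counts are set beside those of NF-kB regulators further on. The sequences are from RefSeq on GRCh38.p14, read along the gene, and capitals mark the match, on either strand, to the NF-kB letters searched for, which are GGG, any 2 bases and TTTCC, or GGAATTTCC. A promoter was given for 7 of the 10 genes, which leaves out CXCL16, CCL2 and CCL5.
CXCL1 (chr4:73869304-73869333, plus strand): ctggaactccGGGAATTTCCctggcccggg
CXCL2 (chr4:74099254-74099283, minus strand): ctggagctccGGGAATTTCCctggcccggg
CXCL3 (chr4:74038749-74038778, minus strand): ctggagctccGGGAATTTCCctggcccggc
CXCL5 (chr4:73998749-73998778, minus strand): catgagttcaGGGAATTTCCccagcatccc
CXCL8 (chr4:73740468-73740497, plus strand): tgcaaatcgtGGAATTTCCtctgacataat
CXCL10 (chr4:76023654-76023683, minus strand): aggagcagagGGAAATTCCgtaacttggag
CCL20 (chr2:227813753-227813782, plus strand): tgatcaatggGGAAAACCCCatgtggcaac

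All 7 promoters held a match in the 250 bases before the RefSeq start, and 2% of 35116 promoters did. The CXCR2 ligands and CCL20 were known NF-kB targets beforehand, and GGAATTTCC gave the only match in CXCL8 and CXCL10. The choice of genes and letters thus largely set this contrast in advance, and it is no test of enrichment. Counted from the RefSeq start, the first capital lay at -79 in CXCL1, CXCL3 and CCL20, at -78 in CXCL2, at -91 in CXCL5 and CXCL8, and at -176 in CXCL10. CXCL1 and CXCL2 were identical at 29 of the 30 bases shown, as were CXCL2 and CXCL3, while CXCL5 matched these 3 genes at 18 to 20 bases. In GENCODE 29, the stretches of CXCL1, CXCL8 and CXCL10 lie upstream of the gene. Those of CXCL2, CXCL3 and CXCL5 lie in the first exon of a transcript that starts farther upstream, and that of CCL20 is intronic. The AP-1 letters TGANTCA were found only in CXCL8 among the 7 (6.57% of all promoters hold them), and the interferon response element letters (TTTC, any 2 bases and TTTC) only in CXCL10 (3.02%), both searched on either strand. A TATAAA on the gene's strand was found in CXCL8 and CCL20 (6.8%). These are matches of letters and not measured binding.

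Library totals ran from 17961765 to 26346187 counted reads, of which the 10 chemokine genes held 1377 to 5069. Levels are given as raw reads or as normalized CPM, in which reads are divided by the TMM-scaled library size. A count of 0 allows up to 3 reads, or 0.116 to 0.168 normalized CPM depending on the library. Intervals and limits cover counting error only. Epithelial keratins were abundant (KRT8 at 2067 to 4280 CPM), but the lung adenocarcinoma markers NKX2-1 and SFTPB had at most 2 and 4 reads in any library, and the third marker, NAPSA, had 7 to 40 and was called higher in PC9 with both drugs. The study calls its RNA-seq replicates biological. Each edgeR p-value sets a change against the spread between replicates, estimated with all 6 groups and moderated over genes. Treated cells had 36 h more in culture than T0 cells, and a vehicle control of that age was not analysed here, so time and drug cannot be told apart. In bulk RNA, fewer expressing cells and less RNA per cell cannot be told apart either.

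Among the 10 genes, CXCL16 dominated in PC9 and shared first place with CCL5 in H1650. Per kilobase of counted exon, CXCL16 made up 95.8% to 96.0% of the summed level of the 10 genes in PC9 T0 libraries and 98.9% to 99.6% in those treated with a drug. In H1650 T0 libraries, CXCL16 made up 45.6% to 47.5% and CCL5 38.0% to 40.7% of that sum. CCL5 took the larger share after treatment, with 51.4% to 55.3% in erlotinib and 57.0% to 57.7% in osimertinib libraries. The other 8 genes were low throughout. None of them exceeded 59 reads in any library, and in PC9 the genes CXCL5, CXCL10, CCL2 and CCL20 had at most 3 reads in each of the 6 libraries.

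**Figure D1:**
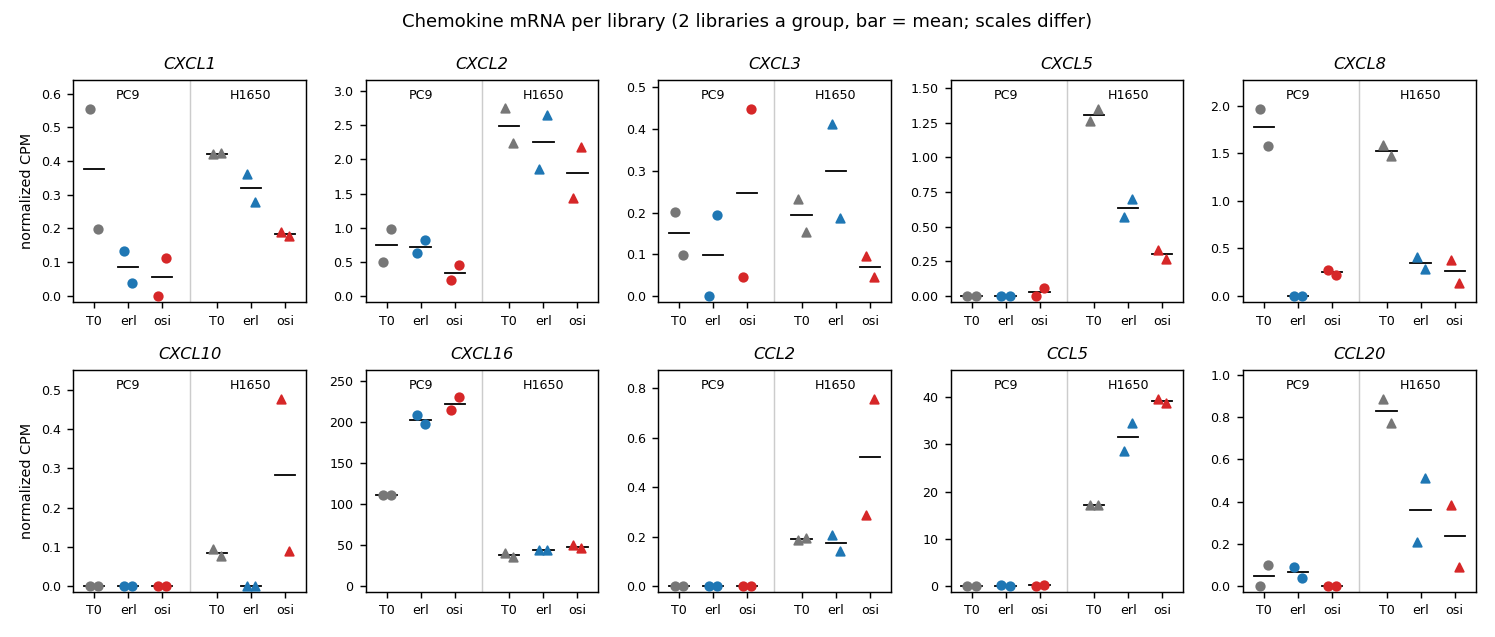
Normalized CPM (y axis, a separate linear scale in each panel) of the 10 chemokine genes in each library of the 6 groups (T0, erl for erlotinib, osi for osimertinib), with a bar at the mean of 2 libraries; circles are PC9 and triangles H1650. CXCL16 rises in PC9 from 111 to 202 and 222, CCL5 is found in H1650 alone above 4 reads, and CXCL8 falls in both lines.

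Set against T0, the tested genes moved in both directions. CXCL5, CCL5 and CCL20 were tested through their reads in H1650 and were at or near 0 in PC9, so in that line only CXCL2, CXCL8 and CXCL16 had reads enough for a comparison. In PC9 with erlotinib, 1 of the 6 tested chemokine genes was higher (CXCL16) and 1 was lower (CXCL8), where 61.8% of all 19108 tested genes were called at an adjusted p under 0.05 (32.7% higher, 29.1% lower). Osimertinib in PC9 gave the same pair of calls, against 61.4% of all genes (32.7% higher, 28.7% lower). In H1650, erlotinib gave 2 higher (CXCL16 and CCL5) and 1 lower (CXCL8), against 36.5% (18% higher, 18.5% lower), and osimertinib gave 2 higher (CXCL16 and CCL5) and 2 lower (CXCL5 and CXCL8), against 35.7% (17.8% higher, 17.9% lower). In H1650 the median log2 fold change of the 6 tested genes was -0.58 with erlotinib and -1.13 with osimertinib. Over all tested genes it was 0.01 and 0. CXCL8 and CCL20 had at least 10 reads in both libraries of a group only at T0, and so passed the filter through T0. That selection favours a negative median, from which no fall of the group can be read. Between the lines at T0, 4 were higher in H1650 (CXCL2, CXCL5, CCL5 and CCL20) and 1 was lower (CXCL16). Of all tested genes, 69.6% were called (35.8% higher, 33.8% lower). CXCL5, CCL5 and CCL20 passed the filter through H1650 alone, which largely set their direction in advance. This count therefore shows no line difference of the group as a set.

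**Figure D2:**
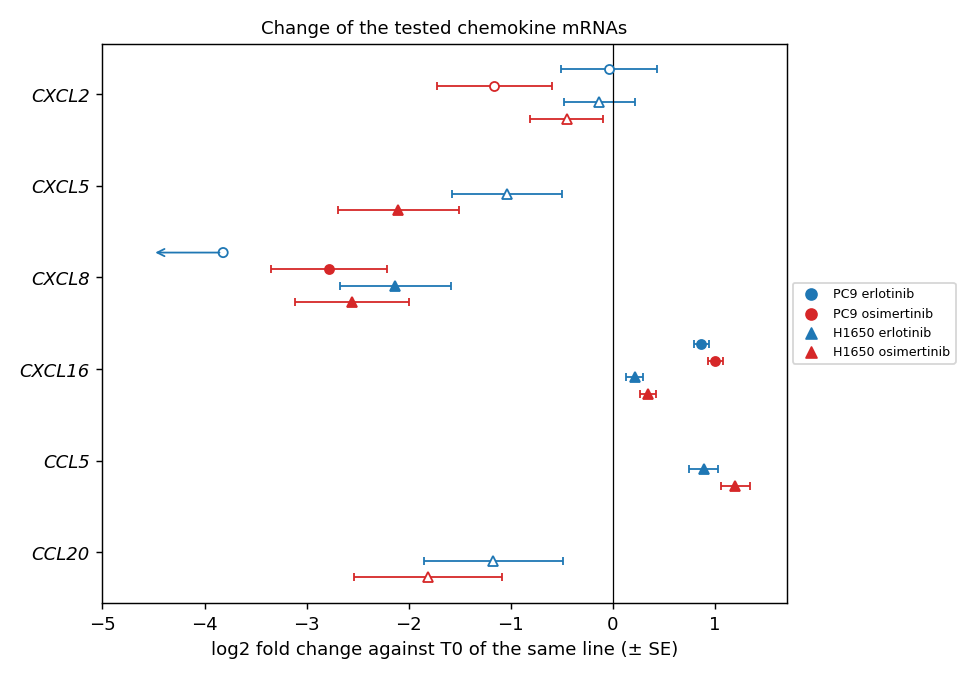
Log2 fold change against T0 of the same line (x axis), with its SE, for the 6 tested chemokine genes, where filled marks passed the adjusted p threshold. PC9 values of CXCL5, CCL5 and CCL20 are left out because reads were at or near 0, and the open circle with an arrow is the bound for CXCL8 in PC9 with erlotinib (at least 14.1-fold lower). CXCL16 and CCL5 lie to the right of 0 and CXCL8 to the left.

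CXCL16 rose with both drugs in PC9 and was the most abundant chemokine mRNA there. The gene lies on chromosome 17 (4733526 to 4739922, minus strand, GENCODE 29 on GRCh38). PC9 T0 libraries held 2191 and 2255 reads, erlotinib libraries 4634 and 5041, and osimertinib libraries 4642 and 4093. Normalized, the level went from 111 ± 0.601 CPM at T0 (SD, n = 2) to 202 ± 7.60 with erlotinib and 222 ± 10.5 with osimertinib. The treated libraries stood clear of the T0 libraries in both cases. The log2 fold change was 0.87 (SE 0.0745) with erlotinib, with an adjusted p of 5.1e-11 in edgeR's quasi-likelihood test, and 1.00 (SE 0.0748, adjusted p = 2.4e-12) with osimertinib.

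H1650 began lower in CXCL16 and changed less. Its T0 libraries held 852 and 926 reads, erlotinib libraries 845 and 939, and osimertinib libraries 1032 and 1042. The normalized level was 37.7 ± 2.84 CPM at T0 (SD, n = 2), 43.7 ± 0.0818 with erlotinib and 47.8 ± 2.01 with osimertinib, and neither drug's libraries overlapped those of T0. At T0 the difference from PC9 was -1.56 on the log2 scale (SE 0.0796, adjusted p = 4.9e-16 in edgeR). With osimertinib the log2 fold change was 0.34 (SE 0.0814, adjusted p = 0.00134), and without T0 replicate 2 it no longer passed, at 0.27 with an adjusted p of 0.0542. With erlotinib it was 0.21 (SE 0.0822, adjusted p = 0.0440), a call that was lost in 11 of 19 alternatives, among them DESeq2 (adjusted p = 0.0973), with adjusted p from 0.0167 to 0.380 over all of them.

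The lines differed in the size of this response. The change of CXCL16 in H1650 minus that in PC9 was -0.65 (SE 0.111, adjusted p = 2.0e-05 in edgeR) for erlotinib and -0.66 (SE 0.110, adjusted p = 1.6e-05) for osimertinib, and both passed in each of the 18 alternatives. For these drug-by-line differences, 40.8% and 41.9% of all tested genes were called. Osimertinib and erlotinib, which were given at different doses, differed in CXCL16 by a log2 value of 0.14 (adjusted p = 0.235) in PC9 and 0.13 (adjusted p = 0.385) in H1650, neither of which passed.

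CXCL16 shares 85 of its 2794 exonic bases (3.04%) with MED11, a Mediator subunit gene on the other strand. The strandedness of the libraries is not given in the sources used here, so reads from those bases cannot be assigned to either gene. MED11 itself stood at 8.51 CPM in PC9 T0 cells and at 11.5 and 12.2 with erlotinib and osimertinib, levels far below those of CXCL16.

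CCL5, also named RANTES, was expressed in H1650 and rose with both drugs. It lies on chromosome 17 (35871491 to 35880793, minus strand). H1650 T0 libraries held 366 and 443 reads, erlotinib libraries 555 and 741, and osimertinib libraries 831 and 871. The normalized level rose from 17.1 ± 0.0156 CPM (SD, n = 2) to 31.6 ± 4.14 with erlotinib and 39.2 ± 0.615 with osimertinib. All treated libraries lay above those of T0. The log2 fold change was 0.89 (SE 0.145, adjusted p = 2.0e-05 in edgeR) with erlotinib and 1.20 (SE 0.144, adjusted p = 2.0e-07) with osimertinib, and each call held in all 18 alternatives.

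PC9 had next to no CCL5. Its T0 libraries held 0 and 0 reads, its erlotinib libraries 3 and 0, and its osimertinib libraries 0 and 4. At T0, CCL5 was at least 114-fold higher in H1650 than the 3 reads per library that a count of 0 allows in PC9 (adjusted p = 1.2e-16 in edgeR). At that depth no change with either drug was detectable in PC9, and the drug-by-line difference was not called. Osimertinib exceeded erlotinib in H1650 by a log2 value of 0.31 (SE 0.139), which did not pass (adjusted p = 0.184 in edgeR).

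CCL5 is known from T cells and other leukocytes, whose markers were low in these libraries. Of the 7 leukocyte markers, the summed level was 0.302 to 0.953 CPM in PC9 libraries. In H1650 it was 2.12 to 2.85 CPM at T0, 1.77 to 2.73 with erlotinib and 3.43 to 4.30 with osimertinib. Most of it was CD14, at up to 3.96 CPM. The pan-leukocyte gene PTPRC had at most 5 reads in any library, the T cell gene CD3E had 0 in all H1650 libraries, and AIF1 had 0 throughout.

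CXCL8, which encodes the neutrophil attractant also called interleukin 8, fell in both lines with both drugs. It lies on chromosome 4 (73740506 to 73743716, plus strand). In PC9, T0 libraries held 39 and 32 reads, erlotinib libraries 0 and 0, and osimertinib libraries 6 and 4. H1650 libraries held 34 and 38 reads at T0, 8 and 6 with erlotinib, and 8 and 3 with osimertinib. Each treated library had fewer reads than any T0 library of its line. CXCL8 passed the low-count filter through its T0 libraries alone, a selection that favours a fall against T0. The normalized level at T0 was 1.77 ± 0.273 CPM in PC9 (SD, n = 2) and 1.53 ± 0.0846 in H1650, and this gap did not pass (log2 -0.22, adjusted p = 0.677 in edgeR).

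In PC9, CXCL8 was at least 14.1-fold lower with erlotinib, computed against 3 reads per library (adjusted p = 1.3e-07 in edgeR), and fell by 2.78 on the log2 scale with osimertinib (SE 0.572, adjusted p = 0.000132). In H1650 it fell by 2.13 with erlotinib (SE 0.542, adjusted p = 0.00261) and by 2.56 with osimertinib (SE 0.563, adjusted p = 0.000681). The last value moved to -3.45 without osimertinib replicate 1. All 4 calls held in every alternative that tested the gene. Their p-values do not allow for the selection of CXCL8 through its T0 reads.

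The lines differed in CXCL8 under erlotinib. The fitted change in H1650 minus that in PC9 was 6.13 on the log2 scale (adjusted p = 0.00174 in edgeR), a value that depends on how 0 reads are treated. With the PC9 erlotinib libraries set at 3 reads, the difference was at least 1.67. For osimertinib it was 0.23 (SE 0.870, adjusted p = 0.890). Within PC9, CXCL8 was at least 1.99-fold higher with osimertinib than with erlotinib (adjusted p = 0.0118 in edgeR), the only one of the 10 genes called between the drugs there, where 16.6% of all tested genes were. This rested on 10 reads against 0. The adjusted p reached 0.0593 to 0.0806 when erlotinib replicate 1 or 2 or osimertinib replicate 1 was left out, and DESeq2 gave none. In H1650, edgeR called 0 of the 6 tested genes between the drugs, against 8.75% of all genes. CCL5 alone had an unadjusted p under 0.05 there, and DESeq2 also called 0.

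CXCL5, a neutrophil chemokine of epithelial cells, was seen in H1650. It lies on chromosome 4 (73995642 to 73998779, minus strand). H1650 libraries held 27 and 35 reads at T0, 11 and 15 with erlotinib, and 7 and 6 with osimertinib, with no overlap between treated and T0 libraries. PC9 libraries held 0 reads, apart from 1 read in an osimertinib library. The level in H1650 was 1.30 ± 0.0644 CPM at T0 (SD, n = 2), 0.633 ± 0.0925 with erlotinib and 0.301 ± 0.0473 with osimertinib. The fall with osimertinib passed the test (log2 -2.10, SE 0.593, adjusted p = 0.00654 in edgeR), and the value with erlotinib did not (log2 -1.03, SE 0.537, adjusted p = 0.141). The osimertinib call was lost in 3 of 18 alternatives, with DESeq2 (adjusted p = 0.0735) and without T0 replicate 2 (0.0533) or osimertinib replicate 2 (0.0798), and the range over all of them was 0.00239 to 0.0798. At T0, CXCL5 was at least 8.72-fold higher in H1650 than in PC9 (adjusted p = 3.0e-06).

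CXCL2 was higher in H1650 than in PC9 and passed the test with neither drug. It lies on chromosome 4 (74097035 to 74099293, minus strand). PC9 libraries held 10 and 20 reads at T0, 14 and 21 with erlotinib, and 5 and 8 with osimertinib. H1650 libraries held 59 and 58 reads at T0, 36 and 57 with erlotinib, and 30 and 49 with osimertinib. In normalized CPM, erlotinib libraries overlapped those of T0 in both lines, and osimertinib libraries lay below them. At T0 the line difference was 1.73 on the log2 scale (SE 0.406, adjusted p = 0.000474 in edgeR). With osimertinib in PC9 the value was -1.16 (SE 0.561, adjusted p = 0.0754, and 0.0315 to 0.509 over 18 alternatives), and in H1650 it was -0.45 (SE 0.355, adjusted p = 0.350). The values with erlotinib were -0.04 in PC9 (SE 0.470) and -0.13 in H1650 (SE 0.349), and their sign turned in some alternatives.

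CXCL1 and CXCL3, the close relatives of CXCL2, had too few reads to be tested. CXCL1 (chromosome 4, 73869393 to 73871242, plus strand) held 11 and 4 reads in PC9 T0 libraries, 3 and 1 with erlotinib, and 0 and 2 with osimertinib. The ratio of treated to T0 was 0.223 with erlotinib (95% exact counting interval 0.0539 to 0.700) and 0.135 with osimertinib (0.0150 to 0.583). In H1650 it held 9 and 11 reads at T0, 7 and 6 with erlotinib, and 4 and 4 with osimertinib, and both ratios had intervals that include 1. In the 13 alternative fits that tested CXCL1 in PC9, the adjusted p ranged from 0.0374 to 0.305 with erlotinib and from 0.0182 to 0.260 with osimertinib. It passed in 1 and in 11 of them.

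CXCL3 (chromosome 4, 74036589 to 74038807, minus strand) held 0 to 8 reads per library. In PC9 they were 4 and 2 at T0, 0 and 5 with erlotinib, and 1 and 8 with osimertinib, and in H1650 they were 5 and 4, 8 and 4, and 2 and 1. No direction can be read from these counts against T0. The longest coding transcripts of CXCL1 and CXCL2 share 60 words of 50 bases (5.73% of those of CXCL1), with a longest common run of 77 bases. CXCL2 and CXCL3 share 54 such words (4.62% of those of CXCL2) and a run of 97 bases. For reads from such shared stretches, the split among the 3 genes is uncertain. Their summed reads were 25 and 26 in PC9 T0 libraries, 17 and 27 with erlotinib, and 6 and 18 with osimertinib. In H1650 the sums were 73 and 73, 51 and 67, and 36 and 54.

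CCL20, which draws CCR6-bearing dendritic and T cells to epithelia, was also read mainly in H1650. The gene lies on chromosome 2 (227805739 to 227817564, plus strand). H1650 libraries held 19 and 20 reads at T0, 4 and 11 with erlotinib, and 8 and 2 with osimertinib, all treated libraries below those of T0. PC9 libraries held 0 to 2 reads. The log2 fold change in H1650 was -1.17 with erlotinib (SE 0.680, adjusted p = 0.192 in edgeR) and -1.81 with osimertinib (SE 0.724, adjusted p = 0.0532), and neither passed. With a fit per line the osimertinib value had an adjusted p of 0.0342, within a range of 0.0342 to 0.414 over 17 alternatives. Single libraries moved these values: with osimertinib it was -3.13 without osimertinib replicate 1 (adjusted p = 0.0461) and -1.10 without replicate 2, and with erlotinib it was -0.68 without erlotinib replicate 1 and -1.98 without replicate 2. At T0 the ratio of H1650 to PC9 was 16.5 (95% exact counting interval 4.27 to 141), with an adjusted p of 0.000834. It rested on 2 reads of PC9 T0 replicate 2: without replicate 1 the fitted log2 difference was 2.99 in place of 3.90, and without replicate 2 it was 7.18 and PC9 had 0 reads.

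CXCL10 and CCL2 were at 0 reads in all 6 PC9 libraries and low in H1650, and neither was tested. CXCL10 (chromosome 4, 76021117 to 76023497, minus strand) held 2 and 2 reads in H1650 T0 libraries, 0 and 0 with erlotinib, and 10 and 2 with osimertinib. Its osimertinib to T0 ratio was 3.27 with an interval of 0.992 to 13.9, and 10 of the 12 osimertinib reads came from replicate 1. CCL2 (chromosome 17, 34255218 to 34257203, plus strand) held 4 and 5 reads at T0, 4 and 3 with erlotinib, and 6 and 17 with osimertinib. The osimertinib to T0 ratio of CCL2 was 2.79 (1.24 to 6.85), of which replicate 2 gave 17 of the 23 reads. In the 12 alternative fits that tested it, the adjusted p of this change was 0.139 to 0.468. The T0 difference of CCL2 between the lines, 9 reads against 0, passed in 10 of the 13 alternative fits that tested it (adjusted p = 0.0221 to 0.0909). Counting intervals do not hold the spread between replicates.

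Outside the 10 genes, the rest of the family was almost silent, with CCL28 as the exception. Of 44 chemokine ligand genes listed, 17 had 0 reads in every library and 25 never exceeded 3, while 7 were tested. The only tested ligand beyond the 10 was CCL28, a mucosal epithelial chemokine that binds CCR3 and CCR10. CCL28 stood at 2.55 ± 0.250 CPM in PC9 T0 cells (SD, n = 2), 4.70 ± 1.20 with erlotinib and 7.40 ± 0.788 with osimertinib. In H1650 it stood at 43.8 ± 0.113, 56.9 ± 2.93 and 64.7 ± 4.0 CPM, and it was called higher in all 4 comparisons with T0. These H1650 levels were above those of CXCL16 (37.7, 43.7 and 47.8 CPM) and CCL5 (17.1, 31.6 and 39.2 CPM). Per kilobase of counted exon, CCL28 lay below CXCL16 in H1650, at 9.69, 12.6 and 14.3 against 13.5, 15.6 and 17.1. The log2 fold change of CCL28 in PC9 was 0.90 with erlotinib and 1.54 with osimertinib, and in H1650 it was 0.38 and 0.56 (largest adjusted p = 0.00438 in edgeR). In PC9 it was also higher with osimertinib than with erlotinib, by 0.65 on the log2 scale (SE 0.156, adjusted p = 0.00376). CXCL11, the CXCR3 ligand next to CXCL10, never exceeded 7 reads.

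Of 22 chemokine receptor genes, 9 were tested, and 4 were called higher with each drug in each line, where 32.7% of all tested genes were higher in PC9 with either drug, and 18% and 17.8% in H1650. Those in PC9 were CCR3, XCR1 (at most 26 reads in any library), ACKR2 (at most 43) and ACKR3. In PC9, 1 was called lower with each drug (CXCR4, at most 28 reads in any library), and in H1650 no receptor was, in edgeR's test. CXCR2, the receptor of the neutrophil ligands, and CCR6, that of CCL20, had 0 reads in every library, and CXCR3 at most 1. CXCR6, the CXCL16 receptor, stood at 1.74, 3.12 and 3.13 CPM in PC9 at T0, with erlotinib and with osimertinib, and the adjusted p was 0.0588 and 0.0586. In H1650 it stood at 0.814, 0.476 and 0.406 CPM, with adjusted p of 0.327 and 0.194.

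Receptors of CCL5 and CCL2 were read in H1650. CCR1 went from 1.30 CPM at T0 to 2.73 with erlotinib and 2.84 with osimertinib (log2 1.05 and 1.11, adjusted p = 0.0287 and 0.0206 in edgeR). CCR3 went from 12.5 to 21.2 and 22.4 CPM (log2 0.76 and 0.84), and in PC9 from 0.597 to 3.62 and 2.82 CPM (log2 2.58 and 2.21, largest adjusted p = 9.8e-05 of the 4). CCR2 had 0 reads in all PC9 libraries and rose in H1650 from 3.75 to 17.0 and 16.7 CPM (log2 2.17 and 2.15, adjusted p = 9.2e-10 and 1.2e-09). ACKR3, an atypical receptor that takes up CXCL12, rose in PC9 from 18.3 to 78.2 and 97.3 CPM (log2 2.10 and 2.41, adjusted p = 2.1e-16 and 8.7e-18), and held at most 7 reads in any H1650 library.

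**Figure D3:**
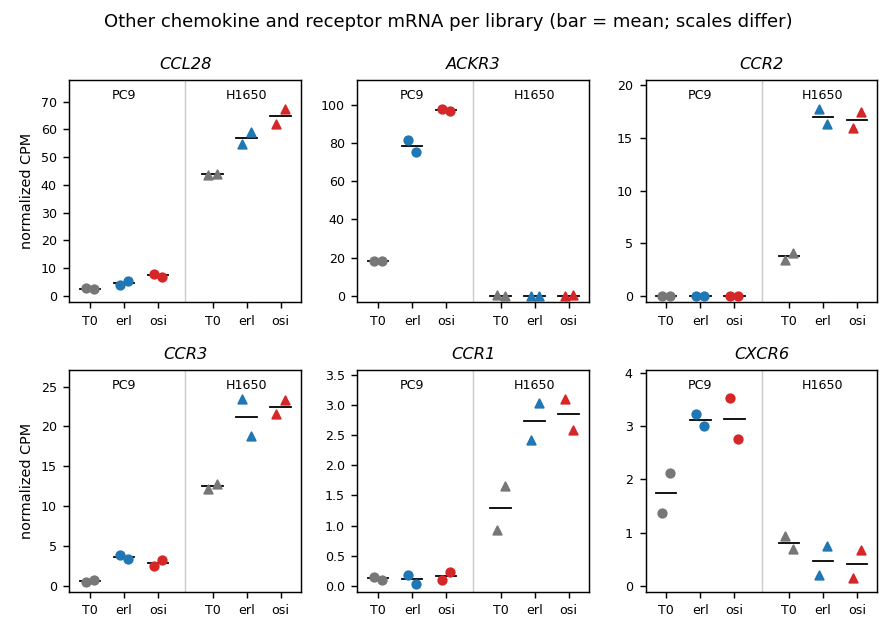
Normalized CPM (y axis, a separate linear scale in each panel) of the ligand CCL28 and of 5 chemokine receptor genes in each library of the 6 groups (T0, erl for erlotinib, osi for osimertinib), with a bar at the mean of 2 libraries; circles are PC9 and triangles H1650. CCR2 is read in H1650 alone, where it goes from 3.75 to 17.0 and 16.7, and ACKR3 goes from 18.3 to 78.2 and 97.3 in PC9.

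The mRNAs of the NF-kB pathway moved in both directions. Of 21 listed genes, all tested, 10 were higher and 7 lower in PC9 with erlotinib, and 13 and 6 with osimertinib. In H1650, 4 were higher and 6 lower with each drug. Over all tested genes, 32.7% were higher in PC9 with either drug and 29.1% and 28.7% lower, and in H1650 18% and 17.8% were higher and 18.5% and 17.9% lower, and the lists that follow are to be read against these shares. The higher genes in H1650 were NFKBIA, NFKBIZ, BCL3 and IKBKB with either drug. Over the list, the median log2 fold change in PC9 was 0.17 with erlotinib and 0.34 with osimertinib, and that in H1650 was -0.06 and -0.03. The inhibitor gene NFKBIA rose in all 4 comparisons, by 1.05 and 1.65 in PC9 and by 0.87 and 1.09 in H1650. NFKBIZ, a nuclear cofactor of NF-kB, rose by 2.19 and 2.78 in PC9 and by 0.67 and 0.70 in H1650. TNFAIP3, which encodes the feedback inhibitor A20, fell by 3.21 and 2.63 in PC9 and by 0.86 and 1.05 in H1650. RELB, a subunit of the noncanonical dimer, differed in sign between the lines: it rose by 1.06 and 1.34 in PC9 and fell by 1.28 and 1.03 in H1650. The drug-by-line difference of RELB was -2.34 for erlotinib and -2.37 for osimertinib (adjusted p = 3.8e-09 and 2.0e-09 in edgeR).

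The interferon pathway list includes upstream regulators of CXCL10 and CCL5. Of 16 listed genes, 13 were tested. With erlotinib 7 were higher and 1 lower in each line, and with osimertinib 8 were higher and none lower in PC9 and 7 higher and 1 lower in H1650. The lower gene in H1650 was IFNAR1 with both drugs. These 13 had a median log2 fold change of 0.19 and 0.48 in PC9, and of 0.52 and 0.26 in H1650. STAT2, a subunit of the interferon-activated factor ISGF3, rose by 2.25 and 2.67 in PC9 and by 0.99 and 0.98 in H1650. IRF1, a transcription factor that acts on CCL5 and CXCL10, rose by 1.87 and 2.22 in PC9 and by 0.81 and 1.18 in H1650. IRF9, the DNA-binding subunit of ISGF3, rose by 1.13 and 1.39 in PC9 and by 0.95 and 0.76 in H1650. IRF7 rose by 0.94 and 0.83 in PC9 and was at 10 reads or fewer in every H1650 library.

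Receptors that feed these pathways also differed between the lines. Of 22 listed inflammatory cytokines and receptors, 18 were tested. In PC9, 7 were higher and 8 lower with erlotinib, and 8 and 7 with osimertinib, while in H1650 the counts were 7 and 4, and 6 and 4. The lower genes in H1650 were IL6, LIF, IL1RAP and IL6ST with either drug. TNFRSF1B, a TNF receptor, fell by 4.85 and 3.51 on the log2 scale in PC9 and rose by 2.21 and 2.03 in H1650. Its drug-by-line difference was 7.06 (SE 0.623) for erlotinib and 5.54 (SE 0.582) for osimertinib (adjusted p = 2.6e-10 and 7.0e-09 in edgeR). Some counts of TNFRSF1B were low. PC9 libraries held 1 and 8 reads with erlotinib and 10 and 9 with osimertinib, and H1650 T0 libraries held 10 and 17. TLR3, a sensor of double-stranded RNA, rose by 1.63 and 2.10 in PC9 and by 0.80 and 1.42 in H1650. IL17RC, a chain of the IL-17 receptor, rose by 1.65 and 1.81 in PC9 and by 0.55 and 0.86 in H1650. IL18R1, the binding chain of the IL-18 receptor, fell by 1.80 and 2.08 in PC9 and had at most 9 reads in H1650 libraries.

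**Figure D4:**
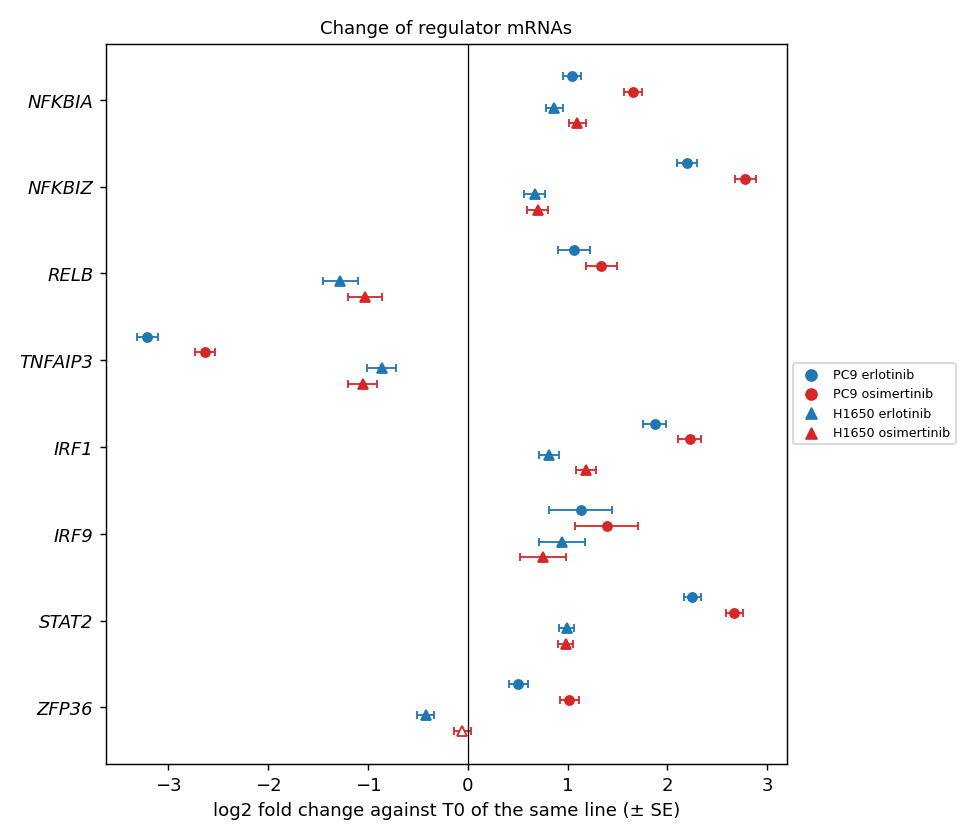
Log2 fold change against T0 of the same line (x axis), with its SE, for 8 regulator genes; circles are PC9, triangles H1650, blue erlotinib and red osimertinib, and filled marks passed the adjusted p threshold. NFKBIA, NFKBIZ, IRF1, IRF9 and STAT2 lie to the right of 0 in all 4 comparisons, TNFAIP3 lies to the left, and RELB lies to the right in PC9 and to the left in H1650.

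Factors of mRNA decay and stability, and the proteases that release CXCL16, were listed too. The first list includes proteins that bind the AU-rich tails of short-lived mRNAs, such as those of CXCL8 and the CXCL1 group. Of 7 mRNA decay genes, all tested, 2 were higher and 4 lower in PC9 with erlotinib and 3 and 3 with osimertinib, and 1 and 4, then 2 and 1, in H1650. ZC3H12A, which encodes the RNase Regnase-1, was called higher in all 4 comparisons. ZFP36, a decay factor, rose in PC9 by 0.51 and 1.02, fell in H1650 by 0.42 with erlotinib and stood at -0.05 with osimertinib (adjusted p = 0.674 in edgeR). ELAVL1, a stabilizing factor, fell by 0.71 and 0.84 in PC9 and by 0.26 with erlotinib in H1650, and KHSRP fell in all 4, by 1.05, 1.03, 0.37 and 0.38. HNRNPD, another AU-rich element binder, fell by 1.14 and 1.28 in PC9 and by 0.23 with erlotinib in H1650. ADAM10 rose by 0.38 and 0.59 in PC9 and stood at -0.09 and -0.00 in H1650 (adjusted p = 0.414 and 0.991). ADAM17 rose by 0.28 with erlotinib in PC9 (adjusted p = 0.00424) and by 0.22 with osimertinib in H1650 (adjusted p = 0.0495), and passed in neither of the other comparisons.

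Genes with the most similar patterns were looked up for the 3 chemokine genes with a mean of at least 1 CPM that were compared with 14995 others over the 12 libraries. Likeness was the root mean square difference of log2 normalized CPM after each gene was centred on its mean. CXCL16 was nearest to TRIM29 (0.119) and ABCD4 (0.122), against a range of 2.68 of its own. TRIM29 stood at 288, 580 and 706 CPM in PC9 at T0, with erlotinib and with osimertinib, and at 113, 128 and 159 in H1650. CCL5 was nearest to MGAT3 (0.545) and RHOU (0.560), both of which were absent or at 6 reads or fewer in PC9 libraries. RHOU stood at 16.9, 27.8 and 34.5 CPM in H1650. CXCL2 was nearest to TMEM65 (0.261) and NMT2 (0.311). The 12 libraries hold 6 groups of 2, so such a likeness mostly repeats the group means.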

How the data were processed

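Polyadenylated RNA of 12 libraries was analysed, 2 for each of 6 groups of line and treatment, grouped by their deposited labels. The authors counted reads per gene symbol with featureCounts in the DolphinNext pipeline and deposited whole-number counts without normalization. The submitters' processing notes name GRCh38 and DESeq2. The aligner, annotation and strandedness are not given in the sources used here. Totals were 17961765 to 26346187, so 3 reads, the limit that a count of 0 allows, equal 0.116 to 0.168 normalized CPM.

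Counts were fitted in R 4.3.3 with edgeR 4.0.16 (TMM factors 0.941 to 1.08, filterByExpr by group with its minimum count of 10, 19108 genes kept and 41483 left out, a quasi-likelihood model of 6 groups with 6 residual degrees of freedom). The procedure was tested on simulated data. Within each line, both drugs were set against T0 and against each other, the lines were compared at T0, and the drug-by-line difference was tested for each drug (9 contrasts). A gene was called when its p, adjusted by the Benjamini-Hochberg method over all tested genes, was under 0.05. SE is the log2 fold change divided by the root of the F statistic. A fold against 0 reads is a bound against 3 reads per library, and genes below the filter have exact conditional binomial 95% intervals. Levels per kilobase use the counted exon length that the authors deposited. Positions are those of GENCODE 29.

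Members and gene lists were chosen with earlier results of these data known. Named genes are the 10 members, other chemokine or receptor genes with a mean of at least 1 CPM, up to 4 genes per list with the largest mean changes among those called, and the 2 nearest patterns. CXCL11, CXCR2, CXCR3, CXCR4, CCR6, CCR10, XCR1, ACKR2, BCL3, IKBKB, IFNAR1, ZC3H12A, IL6, LIF, IL1RAP, IL6ST, MED11 and the markers were named outside that rule, after values were seen for all but the markers. Some genes of the lists are not reported here by name. Alternatives were RLE or upper quartile normalization, DESeq2 1.42.0, no filter, at least 10 counts in every library, a fit per line, the replicate number as a block, an adjusted p under 0.01, and leaving out each library.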

Additional observations from a re-analysis of the deposited data

Results flagged for a closer look

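CXCL16 changed by different amounts in PC9 and H1650, by a test of the difference itself: the log2 change in H1650 minus that in PC9 was -0.65 for erlotinib and -0.66 for osimertinib. CXCL8 was picked out in the same way for erlotinib, with a fitted difference of 6.13 that rests on 0 reads in both PC9 erlotinib libraries. With these set at 3 reads it is 1.67, a value that leaves out the counting error of the H1650 change. The groups held 2 libraries each, too few to look for a single library that stands apart.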

How the results depend on the processing

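When every library had to hold at least 10 counts of a gene, only CXCL16 could be tested. The number of chemokine genes called then became 1 in both PC9 and both H1650 comparisons with T0, 1 between the lines at T0, 1 for the erlotinib drug-by-line difference and 0 between the drugs in PC9, a drop that follows from fewer genes tested. Between the drugs in PC9, DESeq2 and an adjusted p under 0.01 also gave 0 chemokine genes in place of 1. Over all genes, that stricter threshold called 1930 in place of 3163 between the drugs in PC9 and 912 in place of 1672 in H1650.

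Replicate numbers were not taken to pair the samples in the main model. Deviations of same-numbered libraries had a median correlation of 0.0911 over 15 pairs of groups (-0.0635 to 0.245, above 0.1 in 7). The replicate block raised the genes called between the drugs in H1650 from 1672 to 2670 and moved no other count by over 1.5 times. The cause was not tested.

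Leaving out 1 library at a time loosened the filter, so that 7 to 9 chemokine genes were tested. In PC9 with osimertinib, 3 were then called in each of 12 fits in place of 2. CXCL16 and CXCL8 were called in all 12, joined by CXCL1 in 10, CXCL2 in 1 (without T0 replicate 1) and CCL5 in 1 (without osimertinib replicate 1). The same fits gave 2 to 5 chemokine genes called in H1650 with osimertinib (2 without T0 replicate 2, with CXCL5 and CXCL16 lost) and 0 to 1 between the drugs in PC9. Genes called between the drugs ranged from 2108 (without osimertinib replicate 2) to 3234 in PC9 and from 782 (without osimertinib replicate 1) to 1818 in H1650, where leaving out erlotinib replicate 1 or 2 gave 1093 or 1045.

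Signs turned only for values that had not passed the test. The log2 change of CXCL2 with erlotinib in PC9 became 0.051 with upper quartile normalization and ran from -0.44 to 0.52 over the left-out libraries (0.13 without erlotinib replicate 1). In H1650 it ran from -0.43 to 0.10, with 0.014 without T0 replicate 1. Its erlotinib drug-by-line difference ran from -0.66 to 0.31, with the sign turned by leaving out PC9 T0 replicate 1, PC9 erlotinib replicate 2, H1650 T0 replicate 1 or H1650 erlotinib replicate 1. Osimertinib against erlotinib in H1650 ran from -1.32 to 0.15 for CXCL8, turned without osimertinib replicate 2, and from -1.96 to 0.17 for CCL20, turned without replicate 2 of either drug. The osimertinib drug-by-line difference of CXCL8 ran from -0.66, without H1650 osimertinib replicate 1, to 0.82. CXCL16 with erlotinib in H1650 lost its call with DESeq2 (adjusted p = 0.0973), RLE (0.0831), no filter (0.141), a fit per line (0.0551) and 7 of 12 left-out libraries.

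Depth limits all but CXCL16 in both lines and CCL5 in H1650: a gene at 10 reads per library cannot show a small change, and at 0 to 3 reads absence cannot be told from a low level.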
